A study of Mus musculus with 18 samples.

Results

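The genes described here are 47 genes of DNA replication and S phase, taken as a list by symbol from 38250 annotated genes and unannotated transcripts counted in the series. All 47 passed the filter on low counts, as did 18627 of the features in all. Every cell that divides copies its genome once, in a fixed order. The origin recognition complex with Cdc6 and Cdt1 loads the ring-shaped MCM helicase on DNA in G1, which is called licensing, and further factors then switch the helicase on. Polymerases, primase, the sliding clamp and its loader copy the strands, enzymes of nucleotide supply make the building blocks, and repair and chromatin factors follow the fork. Much of this set is transcribed under E2F factors at the entry to S phase. In the embryonic cortex, radial glia divide at the ventricle, intermediate progenitors divide once or a few times more, and neurons have left the cycle.

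The samples were cells of the lateral cortex of C57BL/6 mouse embryos at embryonic day 14.5, of the genotype that the labels write Btg2GFP/Tubb3GFP and that all groups share. Meninges and ganglionic eminences were dissected away, and cells were sorted into proliferating progenitors negative for the Btg2 reporter (PP), differentiating progenitors positive for it (DP) and neurons positive for the Tubb3 reporter (Neuron). Each sample pooled cells of more than 3 embryos from different litters, and p-values therefore reflect how much such pools differ. Each group had 3 libraries, each sequenced in a single-read and a paired-end run whose counts were added. A library held between 34337209 and 55935128 counts. Levels are CPM (counts scaled to a common library total after TMM scaling), and triplets of values follow the order L222, L355 and L393 in PP, L223, L356 and L394 in DP, and L224, L357 and L395 in Neuron. The titles call the Btg2 reporter RFP.

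Marker genes followed the labels of the fractions. The summed level of 5 radial glia genes was 1903 to 2132 CPM in PP, 932 to 1254 in DP and 74.0 to 106 in Neuron. That of 3 intermediate progenitor genes, which include the sort gene Btg2, was 1038 to 1060 CPM in PP, 2206 to 3204 in DP and 260 to 329 in Neuron. Another 4 genes of neurons, which include the sort gene Tubb3, summed to 101 to 234 CPM in PP, 1378 to 1917 in DP and 5823 to 6354 in Neuron. The 7 red blood cell genes, Hbb-b1 the most abundant, summed to 8359 to 15287 CPM in PP against 17.4 to 118 in DP and 9.04 to 13.5 in Neuron, and 4 pericyte genes to 25.5 to 47.4 CPM in PP against 6.08 to 10.4 in DP. For the 5 endothelial genes the sums were 6.58 to 19.9 CPM in PP and 7.65 to 8.76 in DP, and for the 4 microglia genes 7.09 to 8.70 CPM in PP and 4.41 to 4.92 in DP. Interneuron and ventral progenitor genes (5) summed to 4.13 to 49.4 CPM in PP, 26.9 to 149 in DP and 367 to 389 in Neuron. The part of these cells in the results was not tested. Library L223 stood apart within DP: it held the highest DP value of 41 of the 47 replication genes, a radial glia sum of 1254 CPM against 932 and 947, and a sum of 18 G2 and M phase genes of 5340 CPM against 3657 and 3976. It also had the lowest DP sums of intermediate progenitor and neuron genes (2206 and 1378 CPM). Its sums of red blood cell genes and of interneuron and ventral progenitor genes were the highest of DP (118 and 149 CPM). Neuron library L224 held the highest Neuron value of 41 of the 47, with a G2 and M phase sum of 249 CPM against 100.1 and 92.5.

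From PP to DP about as many of the replication genes fell as were not called, and from DP to Neuron all of them fell. Their summed level was 5947, 5611 and 6043 CPM in the PP libraries, 5178, 4079.7 and 4451 for DP and 865, 760.2 and 751 for Neuron, so that the groups did not overlap. The DP mean was 77.9% of the PP mean and the Neuron mean 13.5%. From PP to DP, 25 of the 47 genes were lower and 1, E2f1, was higher by the quasi-likelihood test of edgeR, with p-values adjusted over all features (Benjamini-Hochberg) and a threshold of 0.05. That is 53.2% of the genes called lower, where 20.2% of all features tested were called lower and 21.3% higher. The median log2 fold change was -0.29 over the 47 genes and -0.02 over all features. From DP to Neuron all 47 were lower, against 34.2% of all features called lower and 33.1% higher, with a median log2 fold change of -2.74 against -0.04. From PP to Neuron, a comparison that shares its libraries with the other two, all 47 were lower, against 38.6% of all features called lower and 36.7% higher (75.3% either way). In all 47 every Neuron library lay below every PP library, as in 40.1% of all features. Since these are bulk samples of sorted cells, a smaller share of cells in S phase and less RNA per cell cannot be told apart.

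**Figure D1:**
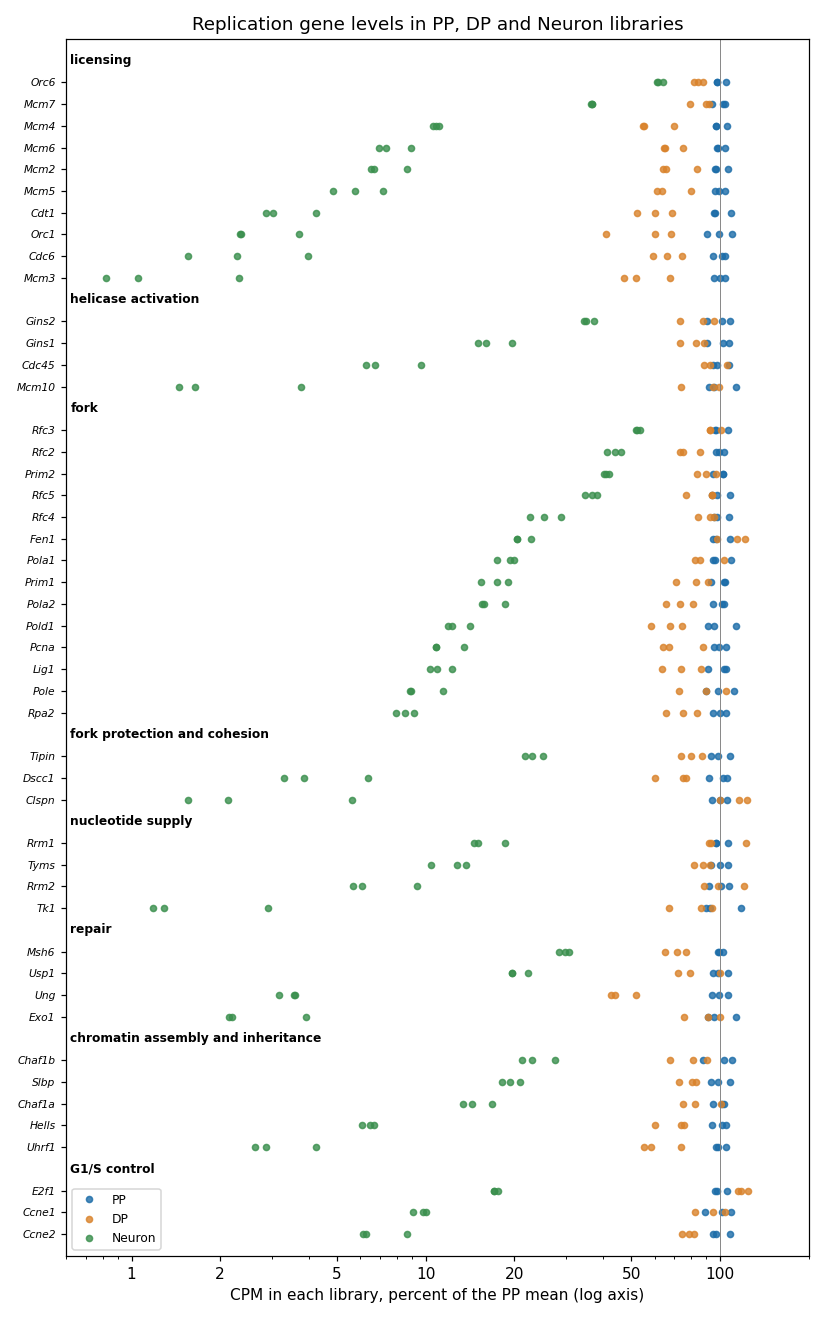
CPM of each of the 47 genes in each library as a percentage of the gene's PP mean, on a log axis, by class; points are single libraries (blue PP, orange DP, green Neuron). Most DP points lie near or below 100% of the PP mean, while Neuron means range from 1.4% for Mcm3 to 62.1% for Orc6.

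Of the licensing genes among the 47, 10 of 10 were called lower from PP to DP, with log2 fold changes from -0.85 to -0.20 and a median of -0.57. Over all features, 20.2% were called lower in this step. Of 6 further genes outside the 47 that were listed under licensing, 2 were lower, with a median of -0.03. A place in this list does not say whether a gene helps or hinders loading. The 2 were Gmnn (log2 -0.48) and Mcmbp (-0.28), while the origin recognition genes Orc2, Orc3, Orc4 and Orc5 were not called. The 10 licensing genes among the 47 summed to 2144, 2023 and 2101 CPM (PP), 1623, 1295 and 1359 (DP) and 258, 232 and 230.3 (Neuron). Mcm3 (chromosome 1, 20793055 to 20810359, mm9), a subunit of the helicase ring, stood at 322, 296 and 309 CPM (PP), 208, 145 and 159.6 (DP) and 7.16, 3.25 and 2.52 (Neuron). All DP libraries lay below all PP libraries, with L223 the highest of the 3, and the fall from PP was the largest of the class (1.81-fold lower, log2 -0.85 ± 0.24, adjusted p = 0.0138, edgeR quasi-likelihood test; errors of log2 values are standard errors). In the authors' deposited table Mcm3 had an adjusted p of 0.097 for this step and a log2 fold change of -0.83. Mcm4 (chromosome 16, 15623990 to 15637493, mm9), another subunit, stood at 245, 225 and 224.3 CPM (PP), 161, 128 and 127 (DP) and 25.6, 24.6 and 25.1 (Neuron). DP and PP did not overlap, and the Neuron libraries were nearly equal (1.67-fold lower in DP, log2 -0.74 ± 0.09, adjusted p = 6.21e-05, edgeR quasi-likelihood test). Mcm2 stood at 447, 407 and 403 CPM (PP), 349.6, 274 and 268 (DP) and 36.2, 27.4 and 27.9 (Neuron). Mcm6 (chromosome 1, 130228168 to 130256233, mm9) stood at 322, 305 and 305 CPM (PP), 233, 202 and 199.7 (DP) and 27.7, 21.5 and 22.8 (Neuron). In each of these 2 genes L223 was the highest DP library and still below the lowest PP library (1.41-fold and 1.47-fold lower in DP, adjusted p = 0.00697 and 0.000687, edgeR quasi-likelihood test).

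Mcm7 (chromosome 5, 138605811 to 138613650, mm9), which hosts microRNA genes, stood at 289, 267 and 294 CPM (PP), 259, 223.7 and 255 (DP) and 104, 103 and 104 (Neuron). It fell least of the class in DP (log2 -0.20 ± 0.07, adjusted p = 0.0379, edgeR quasi-likelihood test) and kept 36.6% of its PP mean in Neuron. The call of Mcm7 in DP was lost without any 1 of 7 libraries (PP libraries L222 and L393, DP libraries L356 and L394, and Neuron libraries L224, L357 and L395), with adjusted p from 0.0526 to 0.164. Mcm7 also lost its call with no filter on low counts (0.0768) and with only PP and DP fitted (0.0755). The same held in the paired-end runs alone (0.085) and without L222, L223 and L224 together (0.0757), by the same edgeR test. In its gene model 12.6% of the exonic bases also belong to other genes, among them Ap4m1, Cops6, Mir25 and Mir93, so its reads are uncertain. Orc6, a subunit of the origin recognition complex, stood at 46.0, 45.9 and 49.4 CPM (PP), 39.5, 38.4 and 41.2 (DP) and 28.7, 30.1 and 28.9 (Neuron). It had the smallest fall of all 47 genes in Neuron (1.36-fold lower than in DP, log2 -0.44 ± 0.07, adjusted p = 0.000109, edgeR quasi-likelihood test), with no overlap between groups. Orc1, the largest subunit of that complex, stood at 16.4, 14.9 and 18.1 CPM (PP), 11.2, 6.72 and 9.89 (DP) and 0.609, 0.386 and 0.386 (Neuron), and fell 1.78-fold in DP and 20.0-fold from DP to Neuron (adjusted p = 0.00307 and 2.01e-08, edgeR quasi-likelihood test). Cdt1, which loads the helicase together with Cdc6, stood at 114, 114 and 129.5 CPM in PP and 81.9, 62.5 and 71.7 in DP (log2 -0.73). Cdc6 stood at 60.4, 56.1 and 61.8 CPM in PP and 44.1, 35.1 and 39.1 in DP (log2 -0.59). Without DP library L356, 6 of the 10 licensing genes were called lower: Mcm3 (adjusted p = 0.0552), Cdc6 (0.0642), Orc6 (0.0528) and Mcm7 lost their calls, and Orc6 also without PP library L393 (0.0522), by the same edgeR test.

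Per exonic length, the 6 genes of the helicase ring stood close together in PP. In Neuron Mcm3 and Mcm7, whose reads are uncertain, stood apart from the other 4. RPKM (CPM per 1000 exonic bases) ran from 64.0 for Mcm7 to 124 for Mcm2 in PP, a ratio of 1.94 between the highest and the lowest. In DP it ran from 38.6 for Mcm4 to 88.2 for Mcm2, a ratio of 2.28. In Neuron the lowest was Mcm3 with 1.44 ± 0.834 RPKM and the highest Mcm7 with 23.4 ± 0.155 (mean ± SD, n = 3), a ratio of 16.2. The other 4 subunit genes lay between 4.97 ± 0.978 for Mcm5 and 9.04 ± 1.46 for Mcm2. Mcm4 with 6.99 ± 0.142 RPKM lay above Mcm6 with 5.5 ± 0.746 in Neuron, by a difference that was not tested, and below it in PP (64.4 ± 3.26 and 71.1 ± 2.31).

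**Figure D2:**
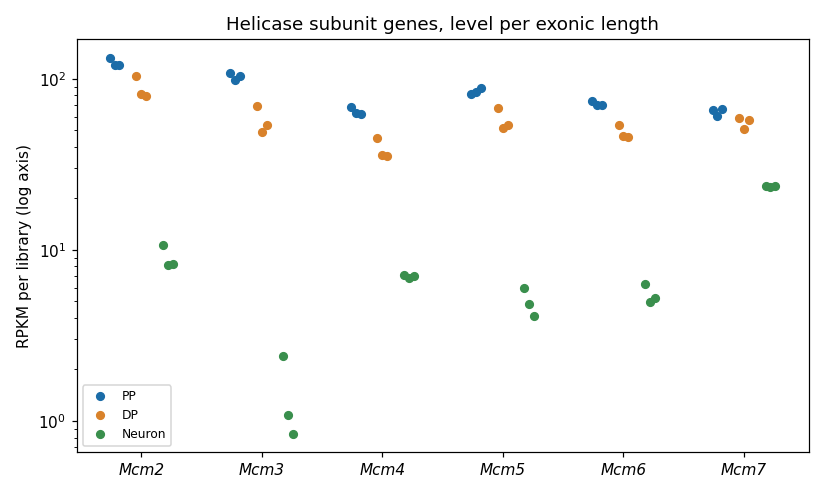
RPKM of Mcm2 to Mcm7 in each library on a log axis; points are single libraries (blue PP, orange DP, green Neuron). The 6 genes lie between 64.0 and 124 RPKM on average in PP, while Neuron means run from 1.44 for Mcm3 to 23.4 for Mcm7. Reads of Mcm7 are uncertain, and Neuron means of Mcm2, Mcm4, Mcm5 and Mcm6 lie between 4.97 and 9.04.

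Of the helicase activation genes in DP, 0 of 4 were called by edgeR's quasi-likelihood test, 2 of them (Gins1 and Gins2) had an unadjusted p under 0.05, DESeq2 called 1 (Gins1), and all 4 log2 fold changes were negative. Gins1, a subunit of the GINS complex, stood at 34.9, 29.2 and 33.0 CPM (PP), 28.6, 23.8 and 26.9 (DP) and 6.34, 5.18 and 4.87 (Neuron). Its DP libraries lay below all PP libraries, and the difference did not pass (log2 -0.29 ± 0.11, adjusted p = 0.0546, edgeR quasi-likelihood test). In the authors' deposited table the adjusted p of Gins1 was 0.0476. Cdc45, which joins MCM and GINS in the active helicase, stood at 38.9, 39.9 and 44.2 CPM (PP), 43.2, 37.9 and 36.2 (DP) and 3.96, 2.76 and 2.58 (Neuron), with overlap between PP and DP (log2 -0.07 ± 0.12). Mcm10, a factor of helicase firing, stood at 62.7, 60.2 and 74.4 CPM (PP), 65.5, 48.4 and 62.2 (DP) and 2.48, 1.08 and 0.953 (Neuron). PP and DP overlapped, L224 was the highest Neuron library, and the fall from DP was 39.0-fold (adjusted p = 7.61e-09, edgeR quasi-likelihood test). Gins2 stood at 66.3, 59.03 and 70.6 CPM (PP), 62.2, 47.7 and 57.4 (DP) and 24.4, 22.8 and 22.6 (Neuron), but 67.3% of its exonic bases also belong to Gse1 on the opposite strand, so its level is uncertain. Without DP library L223 both Gins1 and Gins2 were called lower (adjusted p = 0.0437 and 0.0333), and Gins1 also without PP library L355 (0.0411) or Neuron library L224 (0.039), by the same edgeR test.

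Among the fork genes in DP, 7 of 14 were called lower, 0 higher and 7 were not called, with a median log2 fold change of -0.24. Over all features, 20.2% were called lower and 21.3% higher. Differences between called and uncalled genes were not tested. Among those called, Pold1 (chromosome 7, 51788116 to 51804219, mm9), the catalytic subunit of polymerase delta, stood at 182, 190.1 and 226 CPM (PP), 148, 116 and 134 (DP) and 28.1, 24.5 and 23.8 (Neuron). No DP library reached the lowest PP library (1.5-fold lower, log2 -0.59 ± 0.11, adjusted p = 0.00117, edgeR quasi-likelihood test). Pcna (chromosome 2, 132074898 to 132079050, mm9), the sliding clamp, stood at 194, 184 and 176 CPM (PP), 162, 124 and 118 (DP) and 25.0, 20.0 and 19.9 (Neuron), again without overlap (1.37-fold lower, log2 -0.45 ± 0.12, adjusted p = 0.0102, edgeR quasi-likelihood test). Reads of Pcna are uncertain, since the near copy Pcna-ps2 was counted at 123, 109.6 and 101 CPM (PP), 94.5, 74.3 and 70.5 (DP) and 15.1, 12.7 and 12.6 (Neuron), in the same order of libraries within each group. Pola2 and Prim1 of the priming complex, the ligase gene Lig1, the single-strand binding gene Rpa2 and the clamp loader gene Rfc2 were the other 5 called, with log2 fold changes of -0.45, -0.29, -0.43, -0.42 and -0.36. The call of Prim1 was lost without any 1 of 5 libraries (PP libraries L222 and L393, DP libraries L356 and L394, and Neuron library L395), with adjusted p from 0.0559 to 0.157. Not called were Pola1 and Prim2, which are partners of Pola2 and Prim1, then Pole, the catalytic subunit of polymerase epsilon, and the loader genes Rfc3, Rfc4 and Rfc5, with log2 fold changes from -0.18 to -0.07. Pola1 was called lower without DP library L223 (adjusted p = 0.047) and Rfc5 with sets of neighbouring library numbers (L222 to L224, L355 to L357 and L393 to L395) as a term (log2 -0.19, adjusted p = 0.0299, edgeR quasi-likelihood test). Fen1, the flap endonuclease that trims Okazaki fragments, stood at 98.8, 101 and 113 CPM (PP), 127, 101 and 119 (DP) and 23.7, 21.3 and 21.2 (Neuron). The DP libraries overlapped those of PP (log2 0.15 ± 0.09, adjusted p = 0.205, edgeR quasi-likelihood test), and without DP library L356 Fen1 was called higher (adjusted p = 0.0498). Of its exonic bases 84.2% also belong to the opposite-strand genes Gm10143 and 1810006K21Rik, so its reads are uncertain.

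The 4 clamp loader genes and Prim2 kept the highest shares of their PP level among the fork genes in Neuron. Rfc2 stood at 82.8, 81.0 and 86.3 CPM (PP), 71.3, 61.1 and 62.6 (DP) and 38.6, 36.5 and 34.4 (Neuron), which is 43.8% of the PP mean in Neuron, without overlap between groups (1.78-fold lower than in DP, log2 -0.83 ± 0.08, adjusted p = 1.51e-06, edgeR quasi-likelihood test). Rfc3 kept 52.6%, Rfc5 36.6%, Rfc4 25.6% and the primase gene Prim2 41.2% of the PP mean. At the other end of the class, Rpa2 kept 8.53%, Pole 9.73%, Lig1 11.2% and Pcna 11.7%.

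Fork protection and cohesion had 2 of 3 genes called lower in DP, against 20.2% of all features. Differences between these genes were not tested. Dscc1, which helps an alternative clamp loader in cohesion, stood at 18.3, 15.9 and 17.7 CPM (PP), 12.9, 10.4 and 13.3 (DP) and 1.1, 0.569 and 0.67 (Neuron). Tipin, a partner of Timeless at the fork, stood at 56.4, 51.5 and 48.7 CPM (PP), 45.2, 41.7 and 38.4 (DP) and 13.1, 11.4 and 11.98 (Neuron). Both lacked overlap between PP and DP (log2 -0.50 and -0.32, adjusted p = 0.0224 and 0.0123, edgeR quasi-likelihood test). Without PP library L222 neither was called (adjusted p = 0.0654 for Dscc1 and 0.0516 for Tipin). Dscc1 also lost its call without PP library L393 (0.0604) or DP library L356 (0.0927), and Tipin without DP library L394 (0.0562), by the same edgeR test. Clspn, the checkpoint mediator claspin, stood at 96.5, 90.1 and 102 CPM (PP), 119, 96.6 and 112 (DP) and 5.38, 2.05 and 1.49 (Neuron), with 2 of the DP libraries above all PP libraries and a log2 difference within its error (0.18 ± 0.25). From DP to Neuron the log2 fold change of Clspn was -5.20 (36.6-fold lower, adjusted p = 4.46e-08, edgeR quasi-likelihood test), and -5.92 without Neuron library L224.

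For genes of nucleotide supply no change was detected in DP: 0 of 4 were called by edgeR's quasi-likelihood test, 0 by DESeq2's Wald test and 0 of 4 had an unadjusted p under 0.05. Their sum was 713, 647 and 699.8 CPM (PP), 789, 592 and 644 (DP) and 85.5, 63.7 and 63.1 (Neuron). Rrm1 (chromosome 7, 109590209 to 109618285, mm9), the large subunit of ribonucleotide reductase, stood at 273, 247 and 247 CPM (PP), 313.7, 235 and 238 (DP) and 47.6, 38.4 and 37.3 (Neuron). Rrm2 (chromosome 12, 25393106 to 25399011, mm9), the small subunit, stood at 293, 249 and 274 CPM (PP), 327, 239.7 and 269 (DP) and 25.4, 16.5 and 15.4 (Neuron). L223 gave the highest value of both genes over PP and DP, and the other DP libraries lay within or just under the PP range (log2 0.04 ± 0.12 and 0.03 ± 0.16). Tk1, the thymidine kinase of the salvage pathway, stood at 78.6, 76.3 and 100.1 CPM (PP), 79.9, 57.0 and 73.3 (DP) and 2.48, 1.1 and 1.00 (Neuron) (log2 -0.28 ± 0.20 in DP against PP). It had the steepest fall of the 47 genes from DP to Neuron (45.8-fold, log2 -5.52 ± 0.27, adjusted p = 6.03e-09, edgeR quasi-likelihood test). Tyms, thymidylate synthase, stood at 69.0, 73.9 and 78.7 CPM (PP), 68.5, 60.1 and 64.7 (DP) and 10.1, 7.7 and 9.4 (Neuron), with DP libraries just below all PP libraries and no call (log2 -0.20 ± 0.10, adjusted p = 0.124, edgeR quasi-likelihood test). Without libraries L222, L223 and L224 together, Tk1 was called lower in DP (log2 -0.43, adjusted p = 0.0488). Of 6 further nucleotide supply genes outside the 47, 4 were lower in DP, against 20.2% of all features. The median log2 fold change of the 6 was -0.45. The difference between the 4 genes and the licensing genes was not tested as such.

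Repair genes included the gene with the largest fall in DP. Ung (chromosome 5, 114580395 to 114589332, mm9), the uracil DNA glycosylase that removes misbuilt uracil, stood at 68.5, 64.9 and 73.3 CPM (PP), 35.9, 29.4 and 30.2 (DP) and 2.48, 2.46 and 2.19 (Neuron). DP libraries lay well under PP, and Ung was the one gene of the 47 called lower by at least 2-fold in this step (2.17-fold, log2 -1.12 ± 0.09, adjusted p = 2.88e-06, edgeR quasi-likelihood test), where 6.4% of all features were. Msh6 (chromosome 17, 88374390 to 88390223, mm9), a mismatch recognition protein, stood at 209, 212 and 218 CPM (PP), 164, 139 and 152 (DP) and 63.3, 65.2 and 60.4 (Neuron). It was 1.4-fold lower in DP (log2 -0.49 ± 0.07, adjusted p = 0.000196, edgeR quasi-likelihood test) and kept 29.6% of its PP mean in Neuron. Exo1, the exonuclease of mismatch repair, stood at 52.4, 49.9 and 62.4 CPM (PP), 54.9, 41.3 and 49.9 (DP) and 2.15, 1.18 and 1.21 (Neuron). PP and DP overlapped (log2 -0.17 ± 0.16), yet the fall from DP to Neuron was 32.2-fold (adjusted p = 1.55e-09, edgeR quasi-likelihood test). Usp1, the deubiquitinase of Fancd2 and Pcna, stood at 149, 132 and 137 CPM in PP and 139, 101 and 110.2 in DP (adjusted p = 0.0799, edgeR quasi-likelihood test). Usp1 was called lower without DP library L223 (log2 -0.39, adjusted p = 0.00341), with sets of neighbouring library numbers as a term (0.0063), without the first of these sets (0.00615) and with upper-quartile scaling (0.0434), by the same edgeR test.

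Of the chromatin genes, 3 of 5 were called lower in DP, against 20.2% of all features. Uhrf1 (chromosome 17, 56442744 to 56462909, mm9), which brings the maintenance DNA methyltransferase to new DNA, stood at 334.1, 340.3 and 362 CPM (PP), 255, 191 and 202 (DP) and 14.6, 9.92 and 9.09 (Neuron). Groups did not overlap (1.6-fold lower in DP, log2 -0.68 ± 0.15, adjusted p = 0.00358, edgeR quasi-likelihood test). Hells, a remodeller of the SNF2 family needed for DNA methylation, stood at 127, 118 and 131 CPM (PP), 92.7, 75.8 and 94.5 (DP) and 8.15, 7.64 and 8.4 (Neuron) (log2 -0.52 in DP against PP). Slbp, the binding protein of replication-dependent histone mRNA, had a log2 fold change of -0.35. The chromatin assembly factor genes Chaf1a and Chaf1b stood at 124, 116 and 127 CPM in PP and 124, 91.6 and 101 in DP, and at 61.7, 52.2 and 65.4 CPM in PP and 54.0, 40.6 and 48.4 in DP, with overlap in both. Without DP library L223 both were called lower (adjusted p = 0.0161 and 0.0251, edgeR quasi-likelihood test), which made 5 of 5. Chaf1b was also called without PP library L355 (0.0319) or Neuron library L224 (0.0454).

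Of the 3 genes of the G1/S switch, 1 was higher and 1 lower in DP. E2f1 (chromosome 2, 154385143 to 154395628, mm9), the transcription factor that drives S phase entry, stood at 84.9, 85.9 and 93.4 CPM (PP), 104, 101 and 109 (DP) and 15.0, 15.5 and 15.1 (Neuron). All DP libraries lay above all PP libraries (1.19-fold higher, log2 0.25 ± 0.06, adjusted p = 0.00783, edgeR quasi-likelihood test). It was the one gene called higher, 2.13% of the 47 against 21.3% of all features. Ccne1 and Ccne2 are the E cyclins, partners of Cdk2. Ccne1 stood at 28.0, 31.9 and 34.3 CPM (PP), 32.6, 25.9 and 29.8 (DP) and 3.14, 3.07 and 2.83 (Neuron), with overlap between PP and DP (log2 -0.09 ± 0.10). Ccne2 stood at 29.5, 25.9 and 26.4 CPM (PP), 21.4, 20.2 and 22.2 (DP) and 2.36, 1.71 and 1.67 (Neuron), lower in DP without overlap (log2 -0.36 ± 0.11, adjusted p = 0.0212, edgeR quasi-likelihood test). Its call was lost without PP library L222 (adjusted p = 0.0786) or DP library L356 (0.079) and in the paired-end runs alone (0.0989), and 17.4% of its exonic bases also belong to Ints8 on the opposite strand.

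**Figure D3:**
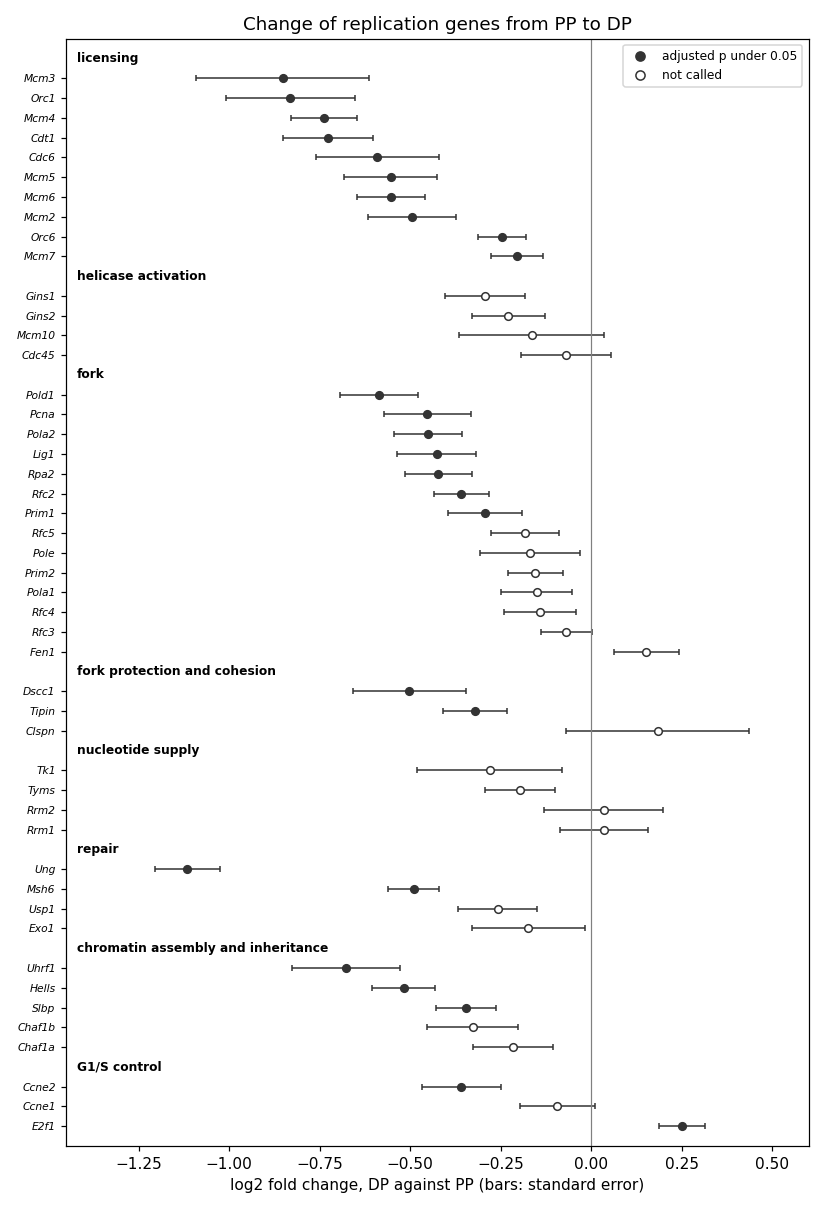
Log2 fold change of each of the 47 genes from PP to DP with its standard error, by class; filled points passed an adjusted p of 0.05. All 10 licensing genes are filled on the left, 0 of 4 in helicase activation and in nucleotide supply are filled, Ung is the lowest and E2f1 the one filled point on the right.

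Markers of the later cycle were summed for comparison. Of all features, 20.2% were called lower and 21.3% higher in DP than in PP, and 8986 of 18627 log2 fold changes were positive. Among 18 genes of G2 and M phase, DP had 0 lower and 1 higher than PP, and 16 log2 fold changes were positive, with a median of 0.33. The gene that was higher was the mitotic kinase gene Aurka (log2 0.53 ± 0.18, adjusted p = 0.0326, edgeR quasi-likelihood test), and the most abundant was Mki67 at 1155, 1026 and 1031 CPM (PP), 1517, 1003 and 1073 (DP) and 66.3, 21.6 and 19.4 (Neuron). Their sum was 3511, 3509 and 3556 CPM in PP against 5340, 3657 and 3976 in DP, so that the groups did not overlap. Divided by that sum, the licensing sum was 0.611, 0.576 and 0.591 in PP and 0.304, 0.354 and 0.342 in DP. L223, the DP library with the highest licensing sum, had the lowest of these ratios. In Neuron all 18 G2 and M phase genes were lower than in DP, against 34.2% of all features. Their median log2 fold change was -4.82, where the replication genes had -2.74. The ratio of licensing to G2 and M phase sums was 1.04, 2.32 and 2.49 in the Neuron libraries. Mcm7, whose reads are uncertain, and Orc6 made up much of that licensing sum. On average they held 104 and 29.2 of its 240 CPM in Neuron, so the ratio does not describe the licensing genes alike.

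**Figure D4:**
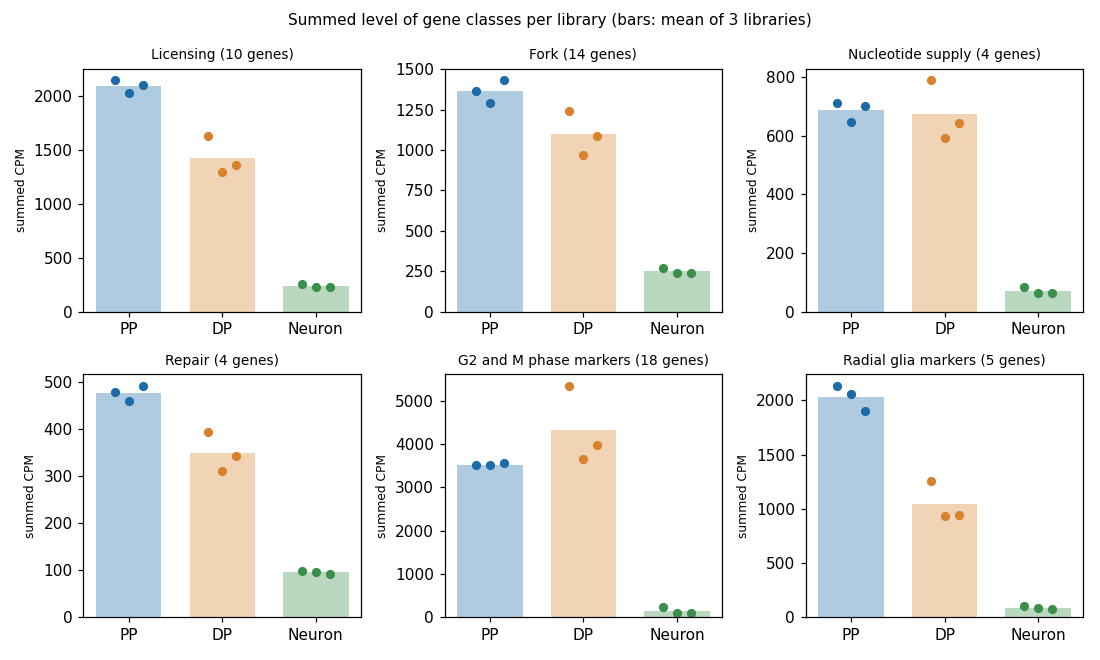
Summed CPM per library of 4 classes of replication genes and 2 marker lists; bars are means of 3 libraries and points single libraries. The licensing sum is lower in every DP library than in every PP library, the nucleotide supply sums overlap between PP and DP, and the G2 and M phase sum is higher in every DP library than in every PP library.

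The fall from DP to Neuron was at least 2-fold for 44 of the 47 genes, against 17.9% of all features, and the exceptions were Orc6, Rfc2 and Rfc3. No Neuron library overlapped a DP library in any of the 47, where 36.9% of all features had every Neuron library below every DP library. For each of the 47 the log2 fall from DP to Neuron was larger than that from PP to DP. Neuron means were under 5% of the PP mean for 11 genes, between 5% and 25% for 27 and at least 25% for 9. The 11 lowest were Mcm3 (1.4%), Tk1 (1.8%), Mcm10 (2.29%), Cdc6, Exo1, Orc1, Clspn, Uhrf1, Cdt1, Ung and Dscc1. For comparison, the 5 radial glia genes stood at 0.579% (Hes1) to 9.66% (Sox2) of their PP mean in Neuron, and Mki67 at 3.34%. The part of progenitors left in the Neuron libraries was not tested. The 9 highest were Orc6 (62.1%), Rfc3 (52.6%), Rfc2, Prim2, Mcm7, Rfc5, Gins2, Msh6 and Rfc4. Of these 9, Mcm7, Gins2, Rfc4, Rfc5 and Msh6 share exonic bases with other genes, over 0.588% of the model in Msh6 to 67.3% in Gins2, and the part of the shared reads was not tested. Class medians of the log2 fold change from DP to Neuron were -3.97 for fork protection, -3.41 for licensing, -3.35 for nucleotide supply and -3.29 for G1/S control. They were -2.96 for helicase activation, -2.88 for repair, -2.53 for chromatin and -2.25 for the fork.

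The rest of the replication machinery was read from 59 further genes of the same classes. In DP 19 of them (32.2%) were lower and 3 higher, against 20.2% of all features lower and 21.3% higher. In Neuron 54 (91.5%) were lower than in DP and 3 higher, against 34.2% and 33.1% of all features. By class, those lower in DP were 2 of 6 licensing, 1 of 6 helicase activation, 7 of 13 fork, 2 of 6 fork protection, 4 of 6 nucleotide supply, 0 of 9 repair, 0 of 5 chromatin and 3 of 8 G1/S genes by edgeR's quasi-likelihood test. The order of the classes thus differed from that among the 47, where licensing had 10 of 10 and nucleotide supply 0 of 4. The 3 lowest in DP were Pole2, Samhd1 and Shmt1. Pole2, the second subunit of polymerase epsilon, stood at 18.0, 17.2 and 21.1 CPM (PP), 11.7, 9.14 and 11.4 (DP) and 1.22, 1.28 and 1.65 (Neuron). Samhd1, which breaks down deoxynucleotides, stood at 67.9, 60.6 and 62.0 CPM (PP), 45.8, 31.9 and 32.5 (DP) and 23.2, 22.5 and 23.2 (Neuron), and Shmt1, an enzyme of the folate cycle, at 49.0, 44.7 and 49.1 CPM (PP), 39.0, 28.0 and 29.5 (DP) and 2.53, 1.71 and 2.16 (Neuron). Each of the 3 had all DP libraries below all PP libraries (log2 -0.81, -0.79 and -0.57, adjusted p = 0.0005, 0.000363 and 0.00543, edgeR quasi-likelihood test).

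Dbf4, the activator of the Cdc7 kinase, Top1, a topoisomerase, and Pold4, a small subunit of polymerase delta, were higher in DP. Dbf4 stood at 56.5, 56.6 and 60.8 CPM (PP), 82.3, 62.7 and 72.6 (DP) and 16.8, 14.9 and 15.3 (Neuron), so it rose and then fell. Top1 stood at 306, 286 and 237 CPM (PP), 383, 452 and 390.4 (DP) and 332, 329 and 312.1 (Neuron), and Pold4, at low level, at 1.32, 1.35 and 1.42 CPM (PP), 1.72, 3.00 and 2.87 (DP) and 5.45, 6.4 and 6.26 (Neuron). Higher in Neuron than in DP were Pold4, the origin recognition gene Orc4 at 47.01, 50.0 and 49.2 CPM (PP), 48.0, 60.8 and 65.9 (DP) and 65.6, 70.3 and 76.5 (Neuron), and Rrm2b at 9.96, 10.4 and 8.3 CPM (PP), 10.3, 11.5 and 11.7 (DP) and 18.9, 20.0 and 19.2 (Neuron) (adjusted p = 0.000139, 0.0344 and 3e-05, edgeR quasi-likelihood test). Rrm2b is the ribonucleotide reductase subunit that cells use outside S phase, and per exonic length the levels of Rrm2b and Rrm2 in Neuron were 3.01 ± 0.0928 and 6.9 ± 1.98 RPKM (mean ± SD, n = 3). For Orc3 and Chtf8 no difference between DP and Neuron was detected (log2 0.02 and -0.03). Within the origin recognition complex the spread in Neuron was wide: Orc1 kept 2.8% of its PP mean, Orc6 62.1%, Orc2 61.6%, Orc5 71.7%, Orc3 109% and Orc4 145%.

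Promoters of the 47 genes were searched for the E2F site, spelled TTTCCCGC, TTTCGCGC, TTTGCCGC or TTTGGCGC on either strand, from 250 bases before to 50 after each RefSeq start (build GRCm38.p6). The table held 41 promoters of 36 of the genes. A match stood in 15 of the 41 (36.6%), against 744 of 32851 promoters of all genes (2.26%) and 18 of 61 promoters (29.5%) of the further replication genes. In the 250 bases before the start alone, a match stood in 9 of the 41 (21.95%), 14 of the 61 (22.95%) and 1.86% of all promoters. By gene, and over the whole window, a match stood in 7 of 9 licensing, 4 of 11 fork and 2 of 5 chromatin genes. Of repair genes 1 of 2 had one, and of fork protection genes 1 of 1. For nucleotide supply it was 0 of 4, for helicase activation 0 of 2 and for G1/S control 0 of 2. Matches of Mcm3, Cdt1, Lig1, Pold1, Msh6 and Clspn lay only after the start. The CCAAT box, spelled CCAAT, stood in 23 of the 41 (56.1%) and in 37.4% of all promoters. These are matches of letters and not measured binding, and the absence of a match says only that these letters are not in this window. Genes that fell in DP stood on both sides. Of the genes with an E2F match in the whole window, Pola1, Rfc3 and Clspn were not called in DP, and all others were called lower. Called lower without a match were Ung, the largest fall, Mcm2, Orc6, Pcna, Pola2, Prim1, Rpa2 and Slbp. Whether a match goes with a fall was not tested.

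Stretches of 60 bases before the start are shown for 5 of the 9 genes with a match before the start, namely those whose stretch overlaps no annotated exon of any gene (Orc1, Mcm7, Hells and Rfc3 are left out for that reason), since most of them belong to the genes that fell together in DP, and for Rrm2, which was not called in DP, as one without a match. Sequences run 5′ to 3′ on the strand of the gene, with E2F matches in capitals, from RefSeq, GRCm38.p6.
Mcm5, chr8:75109334-75109393, plus strand: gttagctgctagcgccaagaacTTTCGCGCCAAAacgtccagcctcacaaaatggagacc
Mcm6, chr1:128359719-128359778, minus strand: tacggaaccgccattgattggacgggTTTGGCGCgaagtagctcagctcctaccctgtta
Cdc6, chr11:98907987-98908046, plus strand: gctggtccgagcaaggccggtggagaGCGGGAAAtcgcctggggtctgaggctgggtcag
Uhrf1, chr17:56304102-56304161, plus strand: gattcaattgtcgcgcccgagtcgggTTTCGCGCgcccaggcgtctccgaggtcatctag
Pola1, chrX:93632260-93632319, minus strand: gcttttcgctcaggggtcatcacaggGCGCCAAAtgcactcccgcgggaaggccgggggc
Rrm2, chr12:24708181-24708240, plus strand: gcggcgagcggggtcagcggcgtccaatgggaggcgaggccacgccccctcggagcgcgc

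In Mcm5 the capitals hold 2 matches on opposite strands that share bases. Mcm6 carried another such overlapping match further upstream, which begins 110 bases before the start. Of the 6 genes shown, Mcm5, Mcm6, Cdc6 and Uhrf1 were called lower in DP with log2 fold changes of -0.55, -0.55, -0.59 and -0.68, Pola1 was not called (-0.15) and neither was Rrm2 (0.03). All 6 fell from DP to Neuron, by log2 -3.53, -3.14, -4.66, -4.27, -2.25 and -3.87.

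The authors' deposited table gave the same call as here for 45 of the 47 genes in DP against PP, with Mcm3 not called and Gins1 called lower there, and for 47 of 47 in Neuron against DP.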

How the data were processed

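The authors deposited whole-number read counts per gene for each library and run, with Ensembl identifiers. Names in the submitters' processing notes include the build mm9 and, without role or order, TopHat2 2.0.10, Bowtie2 2.2.1, featureCounts 1.4.4 and DESeq2 1.4.5, among others. No source used here says whether strand was considered in counting. The authors' comparison tables hold a normalised signal per library, equal to the summed counts of a library over its size factor (159605 and 159602 of 159606 values within 0.06). They also hold the authors' log2 fold change, its standard error and statistic (a score per gene) and the authors' p-value. Count columns carry library numbers that the labels do not give, so each column was tied to its group alone. Between libraries of 1 group, chi-square values per degree of freedom were 7.92 to 29.1, so none was a repeat of another.

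Here the counts of both runs were added and the 9 libraries fitted together by group in edgeR 4.0.16 (R 4.3.3). Low counts were removed by filterByExpr, libraries scaled by TMM, and quasi-likelihood p-values adjusted over 18627 features (Benjamini-Hochberg, 0.05). Standard errors of log2 values are the fold change divided by the root of the F statistic. RPKM used the exonic lengths in the count tables. The fits were tested on simulated data. The 47 genes, their classes, the further lists and the tests were chosen with earlier results of these data known. Values in every library are given by rule, per class, for the genes with the lowest and the highest change in DP and with the highest change in Neuron, and for Pcna, Mcm2, Mcm4, Mcm6, Ung, Ccne1, Ccne2 and E2f1. Others given per library (Orc1, Cdc6, Cdt1, Mcm10, Rrm2, Tyms, Usp1 and Hells) and the genes Aurka, Orc2, Orc5, Gmnn and Mcmbp were chosen after their values were seen. Of the further genes, those higher in DP, those not lower in Neuron and the 3 lowest in DP are named. Alternatives were other scalings, no filter, DESeq2 1.42.0, fits of 2 groups, each run alone, each library left out, the first set of neighbouring library numbers left out, and all sets as a term.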

Additional observations from a re-analysis of the deposited data

How the results depend on the processing

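All 47 replication genes were lower in Neuron than in DP and than in PP under each of the 18 other settings. In DP against PP no gene changed direction with a call, the count of genes lower was 18 to 31 with 1 library left out and 23 to 31 under the other settings, and the count higher was 1 except without DP library L356, where Fen1 made it 2. Counts of licensing genes lower were 6 to 10 with 1 library left out, and Mcm7 lost its call in 11 of all 18 settings. Helicase activation genes numbered 0 lower, and 2 with upper-quartile scaling, 2 with sets of neighbouring library numbers as a term, 1 with DESeq2, and 0 to 2 with 1 library left out (1 without PP library L355 or Neuron library L224, 2 without DP library L223). Fork genes higher numbered 0 to 1 with 1 library left out. Fork protection genes lower numbered 0 to 2 with 1 library left out. Without libraries L222, L223 and L224 together, 1 nucleotide supply gene and 5 chromatin genes were lower. Chromatin genes lower also numbered 5 with the sets of library numbers as a term and 3 to 5 with 1 library left out. G1/S genes lower numbered 0 in the paired-end runs alone and 0 to 1 with 1 library left out. Mcm3 lost its call in DESeq2 (adjusted p = 0.0965). For these changes the cause was not tested. In 250 bases before the start alone, 21.95% of the promoters of the 47 genes had an E2F match, against 22.95% for the further genes and 1.86% of all promoters. Upper-quartile scaling moved the median of all features to -0.11 in Neuron against DP and -0.16 in Neuron against PP. No paired analysis was possible because the count columns carry library numbers in place of the labels' replicate numbers, to which those numbers could not be matched. A fit blocked by the sets of neighbouring library numbers was run instead: 31 of the 47 genes were lower in DP, with Gins1, Gins2, Rfc5, Usp1, Chaf1a and Chaf1b called in addition (adjusted p = 0.00597, 0.0211, 0.0299, 0.0063, 0.0204 and 0.00966), which made 8 fork and 3 repair genes. Counting depth limits the lowest values, with at least 15 counts for each of the 47 genes in each library.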
